A study of Mus musculus with 23 samples.

Results

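The Smok genes encode the sperm motility kinases, a mouse family of serine/threonine kinases made in haploid germ cells. The genes described here were the 6 rows of the count table whose symbol is Smok2a, Smok2b, Smok3a, Smok3b, Smok3c or Smok4a, of 28861 genes in all, and all 6 passed the filter on low counts that kept 22873 genes. The table holds polyA RNA sequencing of testis from 23 wild-type male mice, 1 library each, in 6 groups of strain and diet. C57BL/6J, the strain of the mouse reference genome, had 4 mice on the control diet (10% fat + fiber) and 4 on the high fat, high sugar diet (44% fat + fiber). CAST/EiJ, a wild-derived inbred strain, had 3 and 4 mice, and NZO/HlLtJ, an obesity-prone strain, had 4 and 4. The diets ran from 6 to 16 weeks of age, when testes were taken, and no other treatment is labelled. The family was put forward with the low Smok3b counts of CAST/EiJ known, so differences between strains are described without a test, and only the diet comparisons, which played no part in that choice, are tested.

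Smok kinases are related in their kinase domain to the MARK kinases of the AMPK-related branch. Their best known relative is the t complex responder, a fusion gene made from a Smok copy on the mouse t haplotype, through which sperm carrying that haplotype reach the egg more often than their sister sperm. In that system distorter genes act upstream of the Smok kinase, and the kinase acts on the movement of the flagellum. Smok transcripts are made mainly after meiosis, so in whole testis they come from spermatids. In bulk tissue, fewer spermatids and less RNA per spermatid cannot be told apart.

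All positions are in GRCm38, all 6 genes lie on the + strand, and the start and end in the deposited table equal those of GENCODE M21. Smok3a (ENSMUSG00000075599) spans chr5:138021261-138034664, Smok3b (ENSMUSG00000079156) chr5:138021429-138050636, and Smok3c (ENSMUSG00000075598) chr5:138053194-138066537. The gene model of Smok3b therefore begins inside that of Smok3a and overlaps all but its first bases. Smok2a (ENSMUSG00000073458) spans chr17:13221188-13227658, and Smok2b (ENSMUSG00000073457) lies next to it at chr17:13230257-13237184. Smok4a (ENSMUSG00000079711), at chr17:13521456-13528433, is annotated as a transcribed unprocessed pseudogene, and the other 5 members are annotated as protein coding. GENCODE M21 also lists 3 pseudogenes related to them, the processed pseudogenes Gm29127 (chr5:138017419-138017935) and Gm5285 (chr3:155276058-155276723, - strand) and the unprocessed pseudogene Gm8603 (chr17:13516755-13518269).

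Each member has a second exon of 1586 bases that holds the whole coding sequence of the 5 coding genes, 1512 bases in Smok2a, Smok3a, Smok3b and Smok3c and 1452 bases in Smok2b. Over this exon Smok3a and Smok3b were identical at all 1586 positions in the C57BL/6J reference. Smok3c differed from each of them at 30 positions (98.1% identity), Smok2a from Smok2b at 104 (93.4%), and Smok4a from Smok2a at 107 (93.3%). A window of 100 bases, the length of 1 read, from this exon is printed for all 6 to show how a read can separate copies. It was picked from the coding sequence for the most positions at which Smok3c differs from both Smok3a and Smok3b. The window holds 11 of those 30 positions, so it overstates how well a typical read separates Smok3c. The window starts 177 bases into the exon, inside the coding sequence of the 5 coding genes, and capitals mark the 22 positions at which the 6 genes are not all alike.

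Smok3a (chr5:138032526-138032625): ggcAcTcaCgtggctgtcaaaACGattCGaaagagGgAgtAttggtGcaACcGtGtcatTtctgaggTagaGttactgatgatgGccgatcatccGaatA
Smok3b (chr5:138048497-138048596): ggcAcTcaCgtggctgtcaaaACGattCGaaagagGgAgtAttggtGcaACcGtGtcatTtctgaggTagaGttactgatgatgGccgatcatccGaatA
Smok3c (chr5:138064403-138064502): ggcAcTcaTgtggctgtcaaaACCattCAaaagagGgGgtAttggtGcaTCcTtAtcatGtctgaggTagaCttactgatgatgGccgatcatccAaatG
Smok2a (chr17:13225688-13225787): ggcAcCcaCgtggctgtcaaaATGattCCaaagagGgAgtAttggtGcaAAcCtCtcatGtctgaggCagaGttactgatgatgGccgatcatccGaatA
Smok2b (chr17:13235045-13235144): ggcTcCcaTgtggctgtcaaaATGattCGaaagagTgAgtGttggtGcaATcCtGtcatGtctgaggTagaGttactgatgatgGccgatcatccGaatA
Smok4a (chr17:13526281-13526380): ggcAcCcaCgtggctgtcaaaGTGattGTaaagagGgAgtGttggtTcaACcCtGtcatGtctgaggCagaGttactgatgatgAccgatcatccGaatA

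In this window the letters of Smok3a and Smok3b were the same, and Smok3c differed from both at 11 positions. Smok2a differed from Smok3a at 8 positions, Smok2b at 9 and Smok4a at 11. The stretch just upstream of the RefSeq start sites of the Smok3 copies is shown as well, since these copies are alike there too. It covers 250 to 21 bases before the RefSeq start (GRCm38.p6), and the capital marks the position that differs from Smok3b in the 215 bases where the sequences overlap. For Smok3b this stretch lies inside the GENCODE M21 gene model given above, which begins within Smok3a. RefSeq and GENCODE thus place the start of Smok3b differently. RefSeq promoters were matched for Smok2b, Smok3a, Smok3b and Smok3c.

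Smok3a (chr5:138021026-138021255): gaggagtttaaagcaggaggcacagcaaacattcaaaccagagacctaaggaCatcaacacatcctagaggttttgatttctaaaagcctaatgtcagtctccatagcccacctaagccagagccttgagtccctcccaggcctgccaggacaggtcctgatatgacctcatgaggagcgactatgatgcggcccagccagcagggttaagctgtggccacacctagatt
Smok3b (chr5:138036974-138037203): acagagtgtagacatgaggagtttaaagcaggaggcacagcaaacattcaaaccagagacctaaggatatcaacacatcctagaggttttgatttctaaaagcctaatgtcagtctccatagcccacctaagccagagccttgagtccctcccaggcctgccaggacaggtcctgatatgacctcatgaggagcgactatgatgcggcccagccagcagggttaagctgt
Smok3c (chr5:138052945-138053174): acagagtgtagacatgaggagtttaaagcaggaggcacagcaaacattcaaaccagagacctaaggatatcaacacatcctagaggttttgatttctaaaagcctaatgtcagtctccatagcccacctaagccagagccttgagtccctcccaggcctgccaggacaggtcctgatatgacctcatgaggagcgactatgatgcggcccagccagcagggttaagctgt

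The upstream sequences of Smok3b and Smok3c were identical over all 230 bases. Smok3a, whose annotated start lies a few bases further along the shared sequence, differed at 1 of 215 bases. The alleles of CAST/EiJ and NZO/HlLtJ were not analysed here.

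How far a single read can belong to 1 copy was measured from the transcripts of GENCODE M21, cut into all distinct stretches of 100 bases. The libraries were read in pairs, and a pair may separate copies that 1 stretch cannot. Of the 2401 stretches of Smok3b, 1 was found in no other gene, which is 0.0417%. The share found in 1 gene only was 22.6% for Smok3a, 53.5% for Smok3c, 42.3% for Smok4a, 90.2% for Smok2a and 92.4% for Smok2b. Pooled, Smok3a and Smok3b held 62.5% of their 3021 stretches to themselves, the 3 Smok3 copies together 91.6% of 4278, and both Smok2 genes together 99.7% of 3730. Over 22756 genes with transcripts long enough, the median share was 100%, 5.66% of genes fell below 50%, and 255 genes had a lower share than Smok3b. For Smok4a, 57.7% of the stretches were shared with Gm8603. The counts of Smok3a and Smok3b are thus uncertain as single values, since their split rests on how the authors' counting shared reads among copies, and the sum of both and the sum of all 3 Smok3 copies are given beside them.

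**Figure D1:**
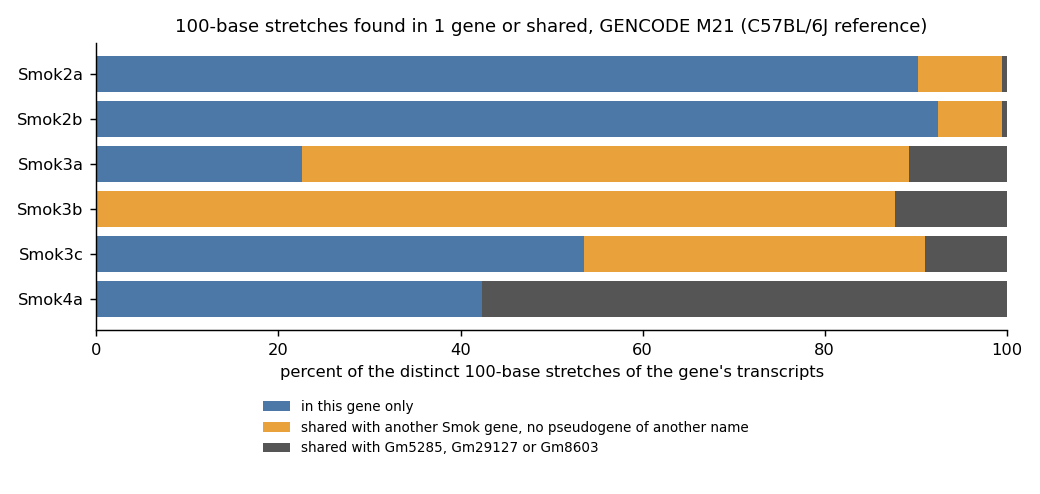
Percent of the distinct 100-base stretches of each Smok gene's transcripts (x axis) that occur in that gene only, are shared with another Smok gene, or are shared with one of 3 related pseudogenes, in the C57BL/6J reference annotation. The Smok2 genes are mostly their own, at 90.2% and 92.4%, whereas Smok3b has almost none (0.0417%) and Smok4a shares 57.7% with Gm8603.

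The estimated counts of a library summed to between 21.9 M and 78.7 M (M, 1000000 counts), with a median of 35.1 M, and the deepest library was CAST/EiJ 44% fat replicate 1. Values below are CPM, the count per 1000000 counts of a library after scaling by the TMM method. All marker genes listed for round and elongating spermatids were found in the libraries, summing to 691 to 890 CPM and to 7809 to 11820 CPM. Of 8 epididymis markers, 2 were among the 22873 genes that passed the filter on low counts, and the rest were not looked at. Crisp1, which is made in the epididymis, stood at 99.0 CPM in CAST/EiJ 44% fat replicate 2 and at 13 CPM in C57BL/6J 10% fat replicate 2, and at 0 to 1.29 CPM in the other 21 libraries. Rnase10, the other marker found, did not follow it, at 4.06 to 4.96 CPM in the C57BL/6J libraries, 0 to 0.251 CPM in all others and 0.129 CPM in that CAST/EiJ library. The Smok values of the first of these libraries lay inside the range of the other CAST/EiJ libraries for Smok2b, Smok3b, Smok3c and Smok4a, while its Smok2a and Smok3a values were the highest of that strain. C57BL/6J 10% fat replicate 2 had the highest Smok3a and the lowest Smok3b and Smok3c values of its strain. Any part of epididymal RNA in the Smok values was not tested.

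Smok3b was close to absent from the CAST/EiJ counts and present in the other strains. In C57BL/6J, Smok3b stood at 18.4, 8.27, 13.5 and 16.9 CPM in the 4 libraries on 10% fat and at 13.9, 11.1, 13.6 and 12.2 CPM in the 4 on 44% fat. The CAST/EiJ libraries gave Smok3b values of 0.21, 0 and 0 CPM on 10% fat and 0, 0, 0.207 and 0 CPM on 44% fat. In 5 of the 7 CAST/EiJ libraries the estimated count was below 1, and the remaining pair had 6.84 (10% fat replicate 1) and 6.55 (44% fat replicate 3). In NZO/HlLtJ, Smok3b was at 9.6, 8.13, 8.14 and 9.1 CPM on 10% fat and at 11.1, 7.54, 6.01 and 8.91 CPM on 44% fat. Over all libraries of a strain, the Smok3b counts summed to 3593 for C57BL/6J, 13.4 for CAST/EiJ and 2626 for NZO/HlLtJ, out of 272.1, 294.9 and 294.5 M counts. The mean was 13.5 ± 3.16 CPM (SD, n = 8) in C57BL/6J, 0.0595 ± 0.102 (n = 7) in CAST/EiJ and 8.56 ± 1.5 (n = 8) in NZO/HlLtJ. The CAST/EiJ mean rests on that pair of libraries, and was 0.0345 CPM without the first and 0.0349 CPM without the second. The fitted log2 difference of CAST/EiJ from C57BL/6J was -7.94 (SE 0.33). These values include the ones that chose the family.

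Smok3a, whose coding exon cannot be told from that of Smok3b in the reference, was not higher in the strain that nearly lacked Smok3b counts. In C57BL/6J, Smok3a stood at 13.2, 18.9, 17.4 and 15.7 CPM in the 4 libraries on 10% fat and at 13.8, 18.2, 17.9 and 16.2 CPM in the 4 on 44% fat. The CAST/EiJ libraries gave Smok3a values of 13.3, 13.1 and 11 CPM on 10% fat and 11, 13.6, 9.16 and 11.6 CPM on 44% fat. Most CAST/EiJ libraries lay below the C57BL/6J libraries, with some overlap. In NZO/HlLtJ, Smok3a was at 17.9, 16.4, 12.9 and 13.7 CPM on 10% fat and at 10.9, 15.4, 15.1 and 17.7 CPM on 44% fat. The means were 16.4 ± 2.10 CPM (SD, n = 8) in C57BL/6J, 11.8 ± 1.59 (n = 7) in CAST/EiJ and 15 ± 2.41 (n = 8) in NZO/HlLtJ. The log2 difference of CAST/EiJ from C57BL/6J was -0.47 (SE 0.10), and that of NZO/HlLtJ was -0.13 (SE 0.09).

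Among mice of 1 group in C57BL/6J and NZO/HlLtJ, Smok3a and Smok3b each varied more than their sum in 3 of the 4 groups, the exception being NZO/HlLtJ on 10% fat, where the sum varied more than Smok3b (11.5% against 8.34%, as the SD in percent of the mean). In C57BL/6J on 10% fat, the library with the highest Smok3b value (18.4 CPM, replicate 1) had the lowest Smok3a value (13.2 CPM), and the library with the lowest Smok3b value (8.27 CPM, replicate 2, which also held Crisp1 counts) had the highest Smok3a value (18.9 CPM). The SD in that group was 31.4% of the mean for Smok3b and 15.2% for Smok3a, against 7.80% for their sum. In NZO/HlLtJ on 44% fat these shares were 25.6% for Smok3b and 19.1% for Smok3a, against 10.4% for the sum. There too the highest Smok3b value (11.1 CPM) and the lowest Smok3a value (10.9 CPM) fell in the same library. In NZO/HlLtJ on 10% fat, however, replicate 1 had both the highest Smok3a value (17.9 CPM) and the highest Smok3b value (9.6 CPM). A sum of values that vary independently also tends to vary less in percent of its mean. How reads were shared between these copies in each mouse was not tested. The sum of both copies was 31.5, 27.2, 31 and 32.7 CPM in C57BL/6J on 10% fat and 27.7, 29.4, 31.5 and 28.4 CPM on 44% fat. In CAST/EiJ it was 13.5, 13.1 and 11 CPM on 10% fat and 11, 13.6, 9.37 and 11.6 CPM on 44% fat. In NZO/HlLtJ it was 27.5, 24.6, 21 and 22.8 CPM on 10% fat and 22, 22.9, 21.1 and 26.6 CPM on 44% fat. All 7 CAST/EiJ libraries thus lay below all 16 others, and the log2 difference from C57BL/6J was -1.33 (SE 0.07). This value does not depend on how reads were split between Smok3a and Smok3b. It can still depend on how reads were shared with Smok3c, which holds 25.3% of the Smok3a stretches and 40.6% of the Smok3b stretches.

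Smok3c, the third copy of the cluster and the one that differs most from the other two, was highest in CAST/EiJ, where the other copies were lowest. In C57BL/6J, Smok3c stood at 8.55, 8.22, 11.6 and 9.46 CPM in the 4 libraries on 10% fat and at 9.07, 10.1, 11.4 and 9.25 CPM in the 4 on 44% fat. The CAST/EiJ libraries gave Smok3c values of 21.1, 22.4 and 16.2 CPM on 10% fat and 19.2, 20.6, 19.4 and 20.3 CPM on 44% fat. In NZO/HlLtJ, Smok3c was at 8.61, 8.7, 6.66 and 6.81 CPM on 10% fat and at 7.59, 8.1, 9.29 and 8.58 CPM on 44% fat. Every CAST/EiJ library lay above every library of the other strains. The mean was 19.9 ± 1.97 CPM (SD, n = 7) in CAST/EiJ, against 9.71 ± 1.24 (n = 8) in C57BL/6J and 8.04 ± 0.943 (n = 8) in NZO/HlLtJ. CAST/EiJ was 2.05 times as high as C57BL/6J and 2.47 times as high as NZO/HlLtJ.

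**Figure D2:**
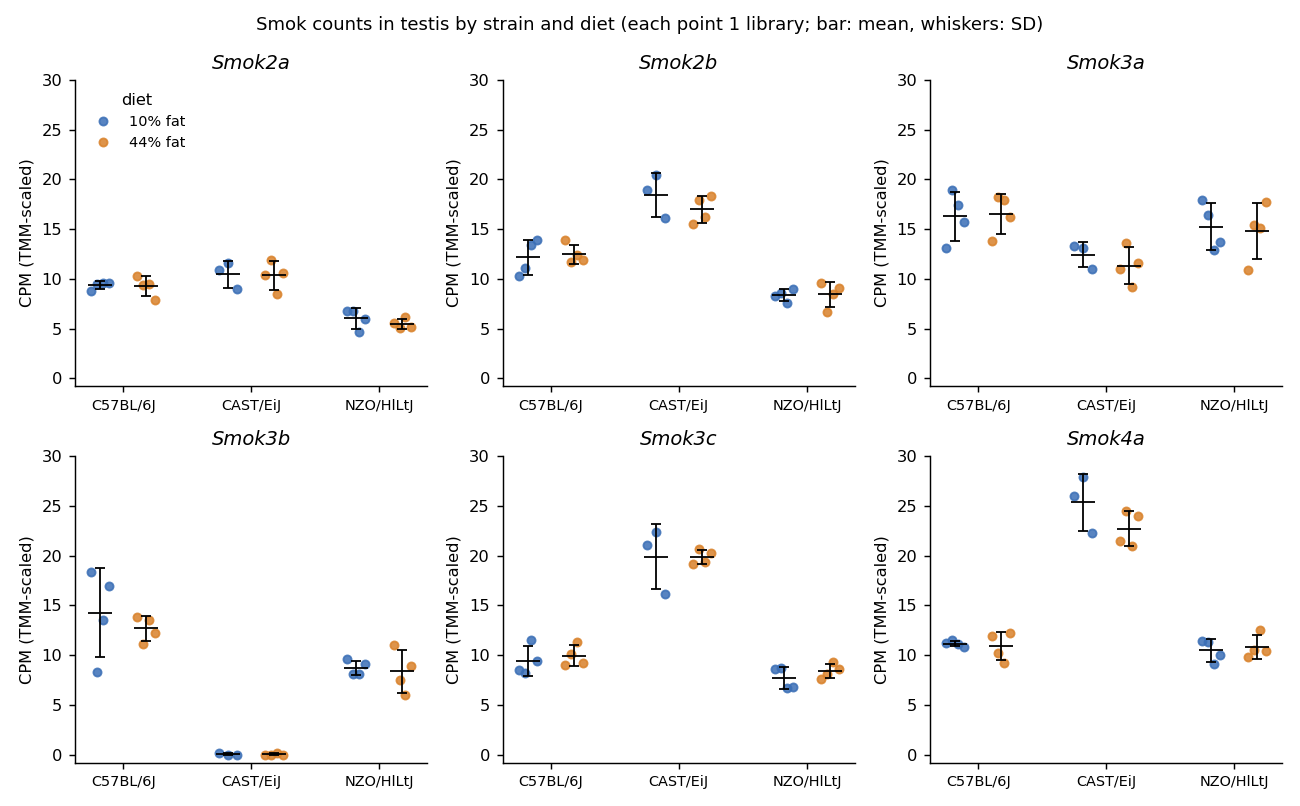
CPM of each Smok gene (y axis, linear) by strain (x axis) and diet (colour), with 1 point per library, the group mean as a bar and the SD as whiskers, for 3 or 4 libraries per group. Smok3b lies near 0 in CAST/EiJ only among these strains, while Smok2b, Smok3c and Smok4a are highest there, and the points of both diets overlap in every strain.

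Summed over the 3 copies, Smok3 differed less between CAST/EiJ and C57BL/6J on the log2 scale than any of its copies did. The Smok3 sum was 40.1, 35.4, 42.5 and 42.1 CPM in C57BL/6J on 10% fat and 36.7, 39.5, 42.9 and 37.7 CPM on 44% fat. In CAST/EiJ it was 34.6, 35.5 and 27.1 CPM on 10% fat and 30.2, 34.2, 28.7 and 31.9 CPM on 44% fat. In NZO/HlLtJ it was 36.1, 33.2, 27.7 and 29.6 CPM on 10% fat and 29.6, 31.1, 30.4 and 35.2 CPM on 44% fat. C57BL/6J was the highest on average, and its lowest library (35.4 CPM) lay just inside the range of the other strains. The means were 39.6 ± 2.83 CPM (SD, n = 8) in C57BL/6J, 31.7 ± 3.19 (n = 7) in CAST/EiJ and 31.6 ± 2.96 (n = 8) in NZO/HlLtJ. The log2 difference from C57BL/6J was -0.32 (SE 0.06) for CAST/EiJ and -0.33 (SE 0.06) for NZO/HlLtJ, and NZO/HlLtJ and CAST/EiJ differed by -0.01 (SE 0.06).

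The makeup of that sum differed between strains. Of the pooled Smok3 counts of C57BL/6J, Smok3a held 41.6%, Smok3b 33.9% and Smok3c 24.5%. In NZO/HlLtJ the shares were 47.4%, 27.2% and 25.3%. In CAST/EiJ Smok3c held 62.7% (exact 95% interval 61.7 to 63.7%), Smok3a 37.2% and Smok3b 0.145% (0.0772 to 0.248%). These intervals cover counting error only and treat estimated counts as reads. Across libraries the Smok3c share ran from 59.6 to 67.4% in CAST/EiJ, from 21.4 to 27.2% in C57BL/6J and from 23 to 30.5% in NZO/HlLtJ, so the CAST/EiJ libraries stood apart from the others.

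**Figure D3:**
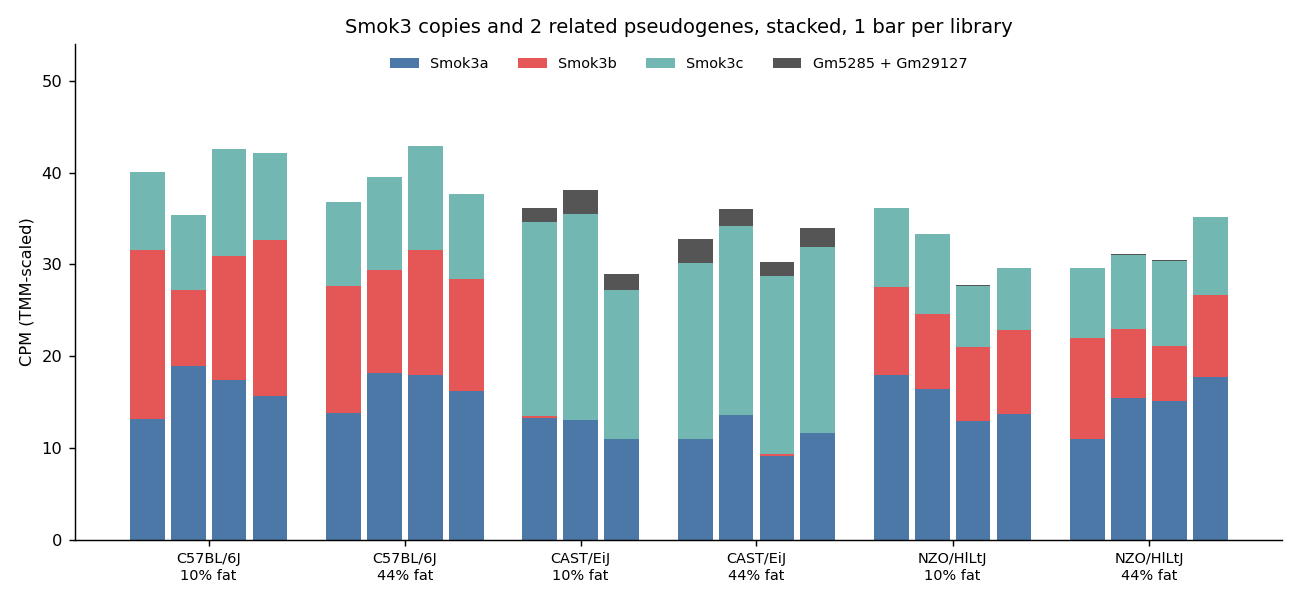
CPM of Smok3a, Smok3b and Smok3c and of the summed pseudogenes Gm5285 and Gm29127 (y axis, stacked), 1 bar per library, grouped by strain and diet (x axis). The CAST/EiJ bars have almost no Smok3b part and carry a Smok3c part of 16.2 to 22.4 CPM, while their Smok3 total of 27.1 to 35.5 CPM overlaps that of NZO/HlLtJ.

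Both processed pseudogenes that share stretches with Smok3 were counted mainly in CAST/EiJ. Gm5285 was listed at 0 in all C57BL/6J libraries, at 1.62 CPM on average in CAST/EiJ and at 0.0193 CPM in NZO/HlLtJ, and Gm29127 was at 0, 0.392 and 0.00724 CPM. Adding both to the sum gave 33.8 CPM in CAST/EiJ and left C57BL/6J at 39.6 CPM. The part that sequence differences between the strains, or the sharing of reads among copies, play in these values was not tested.

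The pair of Smok2 genes on chromosome 17, whose transcripts are mostly distinct from those of the other members, was highest in CAST/EiJ and lowest in NZO/HlLtJ. In C57BL/6J, Smok2b stood at 10.2, 11.1, 13.4 and 13.9 CPM in the 4 libraries on 10% fat and at 13.9, 11.7, 12.4 and 11.9 CPM in the 4 on 44% fat. The CAST/EiJ libraries gave Smok2b values of 18.9, 20.4 and 16.1 CPM on 10% fat and 15.5, 17.9, 16.2 and 18.3 CPM on 44% fat. In NZO/HlLtJ, Smok2b was at 8.32, 8.58, 7.58 and 9 CPM on 10% fat and at 9.56, 6.63, 8.49 and 9.05 CPM on 44% fat. The 3 strains did not overlap for Smok2b. Its means were 12.3 ± 1.32 CPM (SD, n = 8) in C57BL/6J, 17.6 ± 1.77 (n = 7) in CAST/EiJ and 8.40 ± 0.925 (n = 8) in NZO/HlLtJ, and CAST/EiJ was 2.10 times as high as NZO/HlLtJ.

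Smok2a followed the same order with a smaller gap between CAST/EiJ and C57BL/6J. In C57BL/6J, Smok2a stood at 8.76, 9.5, 9.63 and 9.6 CPM in the 4 libraries on 10% fat and at 10.3, 9.41, 9.46 and 7.86 CPM in the 4 on 44% fat. The CAST/EiJ libraries gave Smok2a values of 10.9, 11.6 and 8.94 CPM on 10% fat and 10.4, 11.9, 8.48 and 10.6 CPM on 44% fat. In NZO/HlLtJ, Smok2a was at 6.8, 6.83, 4.63 and 5.95 CPM on 10% fat and at 5.54, 5.11, 6.22 and 5.18 CPM on 44% fat. The NZO/HlLtJ libraries lay below all others, and the other two strains overlapped. The log2 difference of NZO/HlLtJ was -0.69 (SE 0.09) from C57BL/6J and -0.85 (SE 0.09) from CAST/EiJ, and that of CAST/EiJ from C57BL/6J was 0.16 (SE 0.09). Of the pooled Smok2 counts, Smok2a held 43.3% in C57BL/6J, 37.6% in CAST/EiJ and 40.7% for NZO/HlLtJ, a far narrower range than that of the Smok3 copies.

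Smok4a, the transcribed pseudogene, was higher in CAST/EiJ than in both other strains. In C57BL/6J, Smok4a stood at 11.2, 11.5, 11.1 and 10.8 CPM in the 4 libraries on 10% fat and at 11.9, 10.3, 9.23 and 12.2 CPM in the 4 on 44% fat. The CAST/EiJ libraries gave Smok4a values of 25.9, 27.9 and 22.2 CPM on 10% fat and 21.4, 24.4, 21 and 24 CPM on 44% fat. In NZO/HlLtJ, Smok4a was at 11.4, 11.4, 9.1 and 10.1 CPM on 10% fat and at 9.81, 10.5, 12.6 and 10.4 CPM on 44% fat. C57BL/6J and NZO/HlLtJ shared 1 range, and CAST/EiJ stood above it in all 7 libraries. The means were 11 ± 0.955 CPM (SD, n = 8) in C57BL/6J, 23.8 ± 2.51 (n = 7) in CAST/EiJ and 10.7 ± 1.08 (n = 8) in NZO/HlLtJ, with a log2 difference of CAST/EiJ from C57BL/6J of 1.12 (SE 0.07). Gm8603, which shares stretches with Smok4a, had the same order at 1.23, 4.63 and 0.690 CPM. Adding it to Smok4a gave 12.3 CPM in C57BL/6J and 28.5 CPM in CAST/EiJ, a ratio of 2.32 in place of 2.16.

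Counted over the family, CAST/EiJ lay above C57BL/6J without overlap of libraries for 3 of 6 members (Smok2b, Smok3c and Smok4a), where 18.8% of all 22873 genes did so, and below it for 1 (Smok3b), where 20.3% did. NZO/HlLtJ lay below C57BL/6J for 2 of 6 (Smok2a and Smok2b), against 12.9% of all genes, and above it for 0, against 13.3%. NZO/HlLtJ lay below CAST/EiJ for 4 of 6, against 20.8%, and above it for 1 (Smok3b), against 23.1%. These counts describe a family chosen on its strain values, and nothing about the family is read from them. Split by diet, Smok2b, Smok3c and Smok4a lay above C57BL/6J in CAST/EiJ on both diets. The CAST/EiJ to C57BL/6J ratio of the Smok3c means was 2.11 on 10% fat and 2.00 on 44% fat, and that of the Smok4a means was 2.27 and 2.08.

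On a per-length scale, in CPM per kilobase of GENCODE M21 exon, the order of the members also differed by strain. In C57BL/6J the mean levels ran from Smok3a (5.99 ± 0.767, SD) through Smok2b (5.34), Smok2a (5.21), Smok3b (5.20) and Smok4a (4.76) to Smok3c (4.17 ± 0.532), and of the neighbours in this order only Smok4a and Smok3c differed by more than the SD of both (0.412 and 0.532). In CAST/EiJ Smok4a led with 10.3 ± 1.08 CPM per kilobase, followed by Smok3c (8.54 ± 0.843), Smok2b (7.64 ± 0.767), Smok2a (5.82 ± 0.717), Smok3a (4.31 ± 0.581) and Smok3b (0.0230 ± 0.0392). Each step in this order was larger than the SD of either gene. In NZO/HlLtJ Smok3a (5.47 ± 0.880) and Smok4a (4.6 ± 0.468) did not differ beyond their SDs and lay above the other 4, which ran from 3.24 to 3.64 CPM per kilobase without a step beyond the SDs. Over all libraries the members' levels ran from 2.97 (Smok3b) to 6.39 (Smok4a) CPM per kilobase, against a median of 2.07 over 22756 genes.

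Whether the high fat, high sugar diet changed Smok counts was tested within each strain, on average over strains and as a difference between strains. None of the 6 members and none of the sums passed the threshold in any of these tests. Across all 22873 genes, edgeR's quasi-likelihood test with Benjamini-Hochberg adjustment called 0.00874% (2 genes) in C57BL/6J, 0% in CAST/EiJ, 0.00437% (1 gene) in NZO/HlLtJ, 0% on average and 0% for the difference between strains, so 0 of 6 members is not set apart from the background. At an unadjusted p below 0.05 there were 670, 941, 1555, 896 and 1121 genes in these 5 tests and 0 members in each. DESeq2 called 2, 3, 7, 6 and 8 genes and limma on the authors' log2 values 3, 1, 1, 0 and 0, with 0 members among them. The lowest adjusted p of a member was 0.853, for Smok3c in NZO/HlLtJ (edgeR's quasi-likelihood test with Benjamini-Hochberg adjustment). Nor did the libraries of both diets separate for any member in any strain, where 2.09% of all genes did so for C57BL/6J, 5.29% for CAST/EiJ and 3.58% for NZO/HlLtJ.

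The 95% intervals give the sizes of diet difference that these data leave room for. Within strains, the lowest limit of a member other than Smok3b was -0.43 on the log2 scale (Smok3a in CAST/EiJ). The highest was 0.37 (Smok3c in NZO/HlLtJ). For the Smok3 sum, the log2 difference of 44% fat from 10% fat was -0.03 (95% interval -0.20 to 0.15) in C57BL/6J, -0.05 (-0.24 to 0.14) in CAST/EiJ and -0.00 (-0.18 to 0.17) in NZO/HlLtJ. For the Smok2 sum it was 0.02 (-0.17 to 0.21), -0.08 (-0.28 to 0.12) and -0.05 (-0.25 to 0.15). The sum of all 6 members gave -0.02 (-0.17 to 0.13), -0.09 (-0.25 to 0.07) and -0.01 (-0.16 to 0.15). All 9 intervals of these sums include 0. Smok4a had its largest difference in CAST/EiJ, at -0.16 (-0.36 to 0.04), and Smok3c in NZO/HlLtJ, at 0.13 (-0.11 to 0.37). Smok3b had the widest intervals of the 6 members in C57BL/6J and NZO/HlLtJ, at -0.16 (-0.60 to 0.27) in C57BL/6J and -0.06 (-0.51 to 0.39) in NZO/HlLtJ. In CAST/EiJ the Smok3b counts were too few for a diet difference to be detectable. Averaged over strains, the Smok3 sum differed by -0.03 (-0.13 to 0.08) and the Smok2 sum by -0.04 (-0.15 to 0.08).

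**Figure D4:**
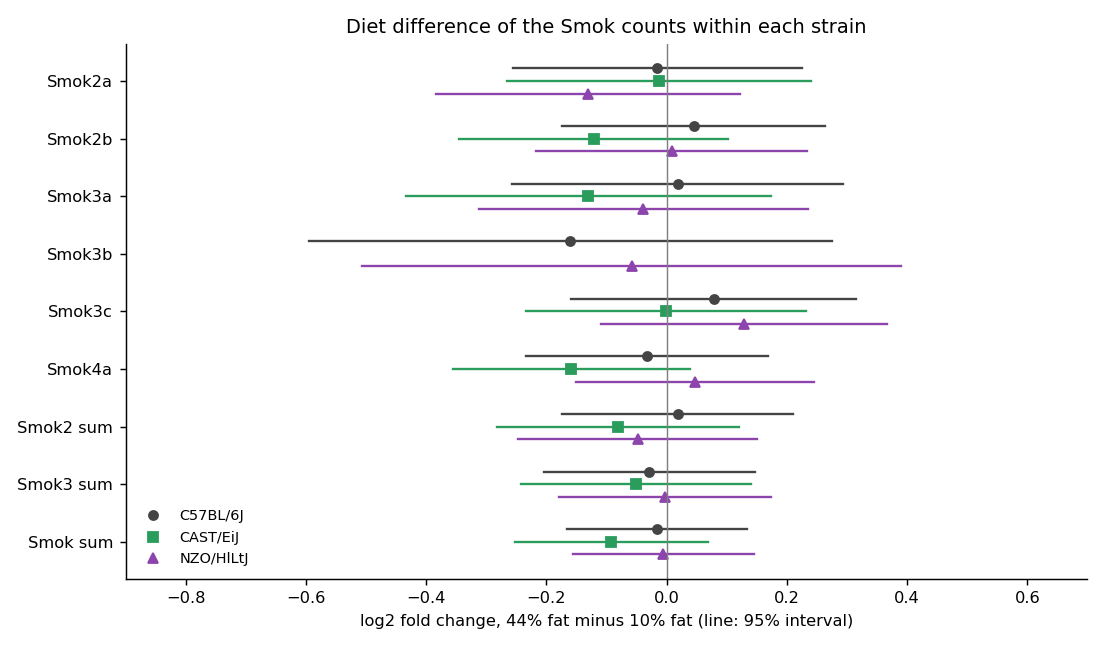
Log2 fold change of 44% fat over 10% fat (x axis) with its 95% interval (line) for each Smok gene and sum (y axis) in each strain (symbol), from edgeR's fit over all 23 libraries. All intervals drawn include 0, that of the sum of all 6 is the narrowest in each strain, and Smok3b in CAST/EiJ is left out because its counts were too low.

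Lists of related kinases and of genes of sperm movement were read in the same fits. Over all genes, 0 to 0.00874% were called. Called members were 0 of 21 among AMPK and MARK related kinases and their partners, 0 of 14 among spermatid kinases and kinase subunits, and 0 of 22 among sperm motility genes. This held in each of the 5 diet tests (edgeR's quasi-likelihood test with Benjamini-Hochberg adjustment). The median log2 diet differences averaged over strains were 0.02, -0.00 and -0.00 in these lists, beside -0.00 over all genes tested.

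Between strains, lists were compared by their median log2 difference from C57BL/6J. That of the spermatid kinases, a list that also holds regulatory subunits of protein kinase A, was 0.11 in CAST/EiJ and -0.18 in NZO/HlLtJ. The median of the sperm motility genes was 0.09 and -0.23. Over all genes tested these medians were -0.00 and 0.01. The list of AMPK and MARK related kinases, which also holds partners of these kinases, had medians of 0.06 and -0.03. Marker genes of round spermatids, which share Tssk1 with the spermatid kinases, had medians of 0.01 and -0.21, and those of elongating spermatids 0.10 and -0.26. Summed marker levels of round spermatids were 788 to 890 CPM in C57BL/6J, 777 to 881 CPM in CAST/EiJ and 691 to 764 CPM in NZO/HlLtJ. Those of elongating spermatids were 9254 to 11300 CPM, 10310 to 11820 CPM and 7809 to 10220 CPM in the same order. The Smok2 sum was 0.61, the Smok3 sum 0.33 and Smok4a 0.06 lower in NZO/HlLtJ than in C57BL/6J on the log2 scale. Summed markers of other testis cells went both ways between NZO/HlLtJ and C57BL/6J, at 827 against 669 CPM for Sertoli cells, 121 against 52.4 CPM for spermatogonia, 48.2 against 34.2 CPM for macrophages, 373 against 374 CPM for peritubular myoid cells and 841 against 932 CPM for pachytene spermatocytes. The Leydig cell sum was 1165 against 680 CPM, with Hsd3b1 at 317 against 59.2 CPM, Cyp17a1 at 525 against 286 CPM and Insl3 at 174 against 137 CPM, but with Star at 71.9 against 89.2 CPM and Cyp11a1 at 77.4 against 109 CPM. The part of cell makeup in the Smok differences was not tested.

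The protein coding genes nearest to the Smok loci were compared in the same way. After the Smok3 cluster on chromosome 5, the zinc finger genes Zkscan1 and Zscan21 lay 18547 and 50366 bases away. Zkscan1 was at 39.9, 26.5 and 42.0 CPM and Zscan21 at 163, 105 and 134 CPM in the order C57BL/6J, CAST/EiJ, NZO/HlLtJ. Both were lowest in CAST/EiJ, where Smok3a and Smok3b were also lowest but Smok3c was highest. The CAST/EiJ libraries lay below those of C57BL/6J without overlap for both zinc finger genes, as for 20.3% of all genes. Their log2 differences of CAST/EiJ from C57BL/6J were -0.59 (SE 0.05) and -0.62 (SE 0.03). Azgp1 and Pilra, before the cluster, were below 1 CPM on average in every strain. Around the Smok2 pair, Tcp10b and Tcp10c, copies of 1 multigene family, were lower in CAST/EiJ than in C57BL/6J, by log2 differences of -1.39 (SE 0.03) and -0.91 (SE 0.04), whereas Smok2b was higher. Unc93a and Tcte2 shared the Smok2 order, with 16.6 and 242 CPM in CAST/EiJ, 13 and 133 CPM in C57BL/6J and 11.5 and 103 CPM in NZO/HlLtJ. Afdn, which follows Smok4a at 232106 bases, was also highest in CAST/EiJ, at 117 CPM against 89.1 and 89.3 CPM.

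Genes whose values followed the Smok3 sum most closely were ranked among 14027 genes by Pearson's r on the log2 scale, as a description with no test. Over the 23 libraries, which fall into 3 strains, the highest were Pex5l (Pearson's r = 0.90, Spearman's rank correlation = 0.90), Adam29 (0.87, 0.85), Ccdc169 (0.87, 0.86), Atat1 (0.87, 0.86) and Fbxl13 (0.86, 0.84). After the mean of each of the 6 groups was taken out, so that only differences between mice of 1 strain and diet were left, they were Cd109 (0.86, 0.80), Pex5l (0.82, 0.82), Spata31d1c (0.82, 0.78), Zfp37 (0.82, 0.82) and Edrf1 (0.82, 0.81). The points share a tissue and a scaling, and the part of cell makeup in these values was not tested. Pex5l, which stood in both rankings, was at 77.4 ± 2.57 CPM (SD, n = 8) in C57BL/6J, 68.0 ± 4.67 (n = 7) in CAST/EiJ and 64.3 ± 3.26 (n = 8) in NZO/HlLtJ, highest in C57BL/6J like the Smok3 sum.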

How the data were processed

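Libraries of polyA RNA were made with a kit that selects polyA and read as 100-base pairs, per the labels' protocols. The deposited table holds estimated counts per gene, made by the authors; 27.9% of values are not exactly whole numbers. A second deposited table holds log2 values, variance stabilised by the authors and used only as an alternative. The submitters' processing notes name GRCm38 and DESeq2, with the aligner, the counter and the handling of reads shared by several genes not given in the sources used here.

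Counts were rounded, filtered with filterByExpr and fitted in edgeR 4.0.16 (R 4.3.3) with TMM scaling and 1 mean per group over all 23 libraries, followed by quasi-likelihood F tests with Benjamini-Hochberg adjustment over all genes at 0.05. Sums of copies entered as extra rows, adjusted with their copies left out. CPM are deposited counts per 1000000 after TMM scaling. Alternatives were DESeq2 1.42.0, limma 3.58.1, other scaling, no filter, the run of title numbers as a covariate, each strain alone, each library left out and, chosen after seeing the data, related pseudogenes added to the sums. The fit was tested on simulated data. Replicate numbers were given in accession order.

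The members and lists were chosen with earlier results of these data known. Genes named were the Smok genes, any list gene called under a diet, the 5 most similar genes by each measure and the 2 nearest coding genes on each side; protein similarity was not used. The result of 1 further gene list is not reported here. Precision rests on 3 or 4 mice per group and on totals of 21.9 to 78.7 M counts (M, 1000000). P-values measure the spread between the mice.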

Additional observations from a re-analysis of the deposited data

Results flagged for a closer look

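In 3 of 50 groups of 4 libraries tested, 1 library stood apart from the other 3 by more than Dixon's 95% limit, where chance flags about 1 in 20 groups. Smok2a in C57BL/6J on 10% fat was at 8.76 CPM in replicate 1, and the other 3 libraries lay between 9.50 and 9.63 CPM. Smok3b in CAST/EiJ on 44% fat was at 0.207 CPM in replicate 3, from an estimated count of 6.55, and was 0 in the other 3. The Smok2 sum in NZO/HlLtJ on 10% fat was at 12.2 CPM in replicate 3, against 14.9 to 15.4 CPM in the others. No cause was tested for these values.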

How the results depend on the processing

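No paired analysis was possible because the labels give each mouse its own number and name no pairs between groups. The replicate numbers used here follow accession order and pair no mice. No Smok gene or sum was called under a diet in any alternative: of 673 such values, 50 changed sign, and the lowest adjusted p was 0.681 and the lowest unadjusted p 0.0217 (edgeR, DESeq2 or limma). The number of all genes called moved. In C57BL/6J it was 2, and 0 with the strain alone. In CAST/EiJ it was 0, but 1 with limma and 3 with DESeq2. In NZO/HlLtJ it was 1, but 2 without the filter, 0 with the run covariate, 0 with the strain alone and 7 with DESeq2. The average effect had 0, and 6 with DESeq2, and the difference between strains 0, and 8 with DESeq2. Leaving out each library in turn gave 0 to 2 calls in C57BL/6J, 0 to 3 in CAST/EiJ (3 without 44% fat replicate 3), 0 to 5 in NZO/HlLtJ (5 without 10% fat replicate 4), 0 to 2 on average and 0 to 1 for the difference. The cause was not tested. Strain means of the members stayed within 1 SD under every alternative run, though the CAST/EiJ mean of Smok3b, whose SD exceeds it, ran from 0.0345 to 0.0694 CPM when single libraries were left out (0.0345 without 10% fat replicate 1). The exception was that Smok4a with Gm8603 added, an alternative chosen after seeing the data, came to 12.3 CPM in C57BL/6J and 28.5 CPM in CAST/EiJ. The log2 values gave no sums of copies. Smok3b is limited in CAST/EiJ by its few counts, with 13.4 estimated counts behind its mean out of 294.9 M. Single Smok3 copies are limited by shared sequence in all strains.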
